A study of Mus musculus with 38 samples.

Results

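IM1 and IM3 are macrophage populations of the resting mouse lung that differ in both surface markers used to divide the interstitial macrophages. IM1 cells were sorted as low for MHC class II and high for CD206, and IM3 cells as high for MHC class II and low for CD206. The comparison takes 6 of the 12 libraries of the series, 3 from IM1 and 3 from IM3, which correspond to 18 of its 38 sequencing runs and were chosen by their labels alone. The other libraries come from IM2, which is high for both markers, and from alveolar macrophages (AM). Their levels appear below as side values. In the main fit they share the filter, the scaling and the estimate of spread with IM1 and IM3. All cells came from untreated C57Bl/6 mice of 8 to 10 weeks. The lungs were perfused, minced and digested with Liberase, and the suspension was enriched for MerTK-positive cells. Interstitial cells were then sorted as CD64-positive and CD11b-positive cells that lacked markers of lymphocytes, natural killer cells, granulocytes and alveolar macrophages (CD3, B220, NK1.1, Ly6G, CD24, CD43 and Siglec F). By the labels IM1 is also low and IM3 positive for CD11c, so CD11c differs between the populations together with the gates. About 50000 cells gave RNA for each library, and 2 ng of RNA entered amplification. Whether the 3 replicates of a population are different animals is not stated in the labels. The p-values below therefore rest on the spread between libraries, pooled over all 12 of the series.

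Macrophages present peptides to CD4 T cells on MHC class II molecules, whose genes are switched on together by the transactivator CIITA. CD206 is the mannose receptor, an endocytic lectin encoded by Mrc1 that is typical of tissue macrophages engaged in scavenging. In the lung and other organs, macrophages that are high for CD206 and LYVE1 lie along blood vessels, whereas macrophages that are high for MHC class II and CD11c share more genes with monocytes and dendritic cells. The comparison asks what else differs between cells at opposite corners of these gates.

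The answer in these libraries was broad. Of 25 genes of the CD206-high perivascular programme 24 were higher in IM1, among them the lectins Cd209f and Cd209g, the hyaluronan receptor Lyve1, the folate receptor Folr2 and the haemoglobin receptor Cd163. That set of genes was drawn up with earlier results of these libraries known and includes the gated Mrc1. Higher in IM1 as well were some of the genes of monocyte-attracting and eosinophil-attracting chemokines (Ccl8, Ccl24, Ccl7), complement (C4b, C6, Cfp), iron and haem handling (Cp, Tfrc, Blvrb), lysosomal proteases (Ctsb, Ctsd) and the cell cycle (Ccnb2, Top2a). Lower in IM1 were 11 of 20 genes of MHC class II presentation (Ciita among them), the chemokine receptor Ccr2, 11 of 18 integrin subunits, the inflammatory cytokine Il1b, the matrix proteases Mmp12, Mmp13 and Mmp14, and the TGF-beta receptor Tgfbr1. The counts of presentation genes and integrins include the gated H2-Aa, H2-Ab1 and H2-Eb1, and Itgax (CD11c), which by the labels differs between the sorts.

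Levels are in CPM, read counts scaled to library size with TMM factors, and fold changes are log2 of IM1 over IM3 with their standard error (SE). A gene is called when its adjusted p in edgeR's quasi-likelihood test is under 0.05, with Benjamini-Hochberg adjustment over all 14095 genes tested. Of these, 3445 were called (24.4%), 1790 higher in IM1 (12.7%) and 1655 lower in IM1 (11.7%). A difference of at least 2-fold was called in 1633 genes (11.6%), 887 of them higher and 746 lower in IM1, and a difference of at least 8-fold in 158 higher and 105 lower. The median log2 fold change over all genes tested was 0.02. In 5172 of the 14095 genes, called or not, the libraries of IM1 and IM3 did not overlap. These shares are the background for the counts of each gene list below. Since RNA of sorted cells was measured in bulk, fewer cells with a transcript and less of it per cell cannot be told apart.

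**Figure D1:**
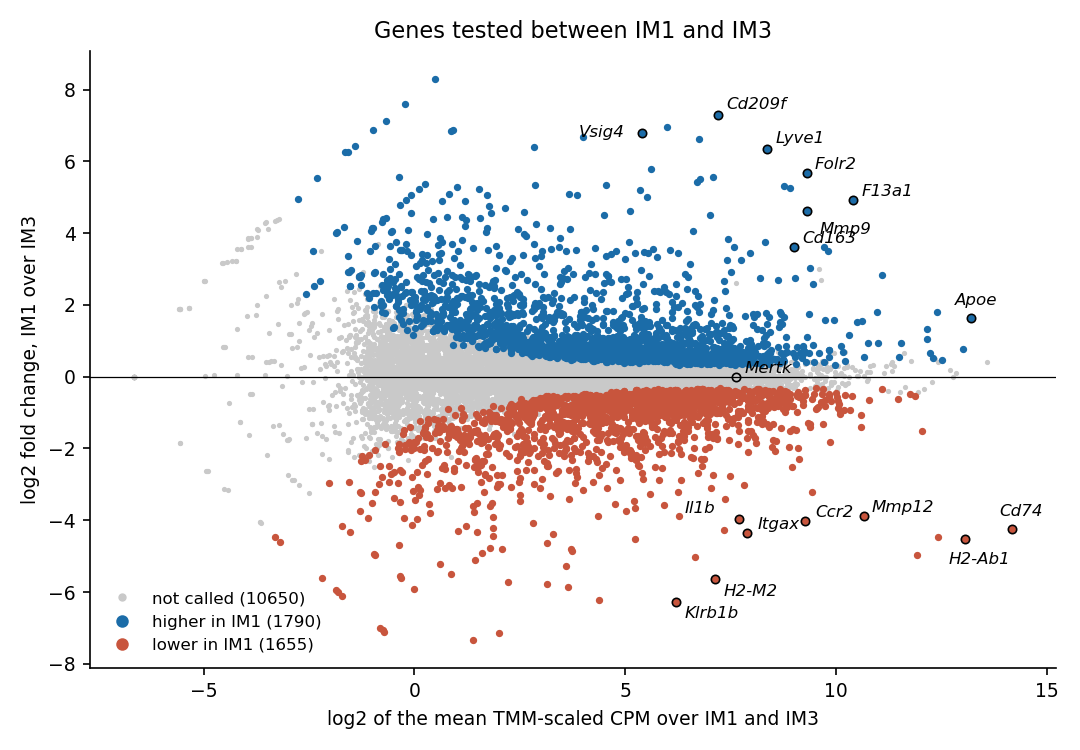
Log2 fold change of IM1 over IM3 (vertical axis) against log2 of the mean CPM over both populations (horizontal axis) for the 14095 genes tested, 1 point per gene. Blue points are the 1790 genes called higher in IM1, red points the 1655 called lower and grey points those not called, and labelled genes are circled. Cd209f lies at 7.29 and Klrb1b at -6.27, while Mertk, by which both populations were enriched, lies at 0.00.

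Reads assigned to genes numbered 11818981, 13851387 and 14572622 in IM1 (replicate A first, then B and C, as in all lists of 3 values below) and 15020837, 13739160 and 14393658 in IM3, so that 3 counts correspond to 0.2 to 0.254 CPM. The IM1 libraries differed more among themselves than the IM3 libraries did. The correlation of log2 CPM across genes, which are not independent replicates, was 0.957 to 0.98 between IM1 libraries, 0.982 to 0.983 between IM3 libraries and 0.911 to 0.948 between populations. IM1 replicate A, the shallowest library, had relatively more reads on short genes. Among 3 equal classes by gene length, its median log2 level over the shortest was 0.38 above the mean of the other IM1 libraries, and over the longest 0.28 below. IM1 replicate B went the other way, at -0.29 and 0.28, and each IM3 library lay within 0.09 of the other two. In the comparison itself the shortest genes had a median log2 fold change of 0.22 with 733 called higher and 312 lower in IM1, and the longest -0.13 with 440 higher and 708 lower. With a gene length trend taken out of each library these medians were 0.04 and 0, and 3623 genes were called in all. Without IM1 replicate A, 3036 genes were called. A further feature set 3 libraries apart. Trac, the constant region of the T cell receptor alpha chain, reached 4067 CPM of assigned reads in IM1 replicate A, 645 CPM in IM3 replicate B and 1127 CPM in IM2 replicate B, but at most 0.939 CPM in the other 9 libraries. Without these 3 libraries 2485 genes were called. Of the genes called in all libraries, 2693 were called the same way without IM1 replicate A, 3154 with the length trend taken out and 2309 without the 3 libraries, and 0 were called the opposite way. The part of gene length or of these libraries in a single difference was not tested beyond these fits, and list counts that they move by more than 1.5 times are given with both values.

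The transcripts of the gated markers and of CD11c went with the labels, which is a check of the labels and not a finding. Mrc1 (CD206) stood at 1756, 2283 and 2407 CPM in IM1, against 699, 769 and 770.5 CPM in IM3, a log2 fold change of 1.53 ± 0.13. Itgax (CD11c) stood at 13.02, 32.4 and 20.3 CPM in IM1 and 418, 428.5 and 510.2 CPM in IM3 (-4.36 ± 0.27). The difference in CD206 was thus a matter of degree at the level of RNA, with a substantial level left in IM3, whereas Itgax was low in every IM1 library. Markers shared by both sorts differed little: Mertk had a fold change of 0.00 ± 0.14 and Itgam (CD11b) of -0.16 ± 0.17, with adjusted p = 1 and adjusted p = 0.525 in edgeR's test. Fcgr1 (CD64) was called higher in IM1 at 0.46 ± 0.16 with edgeR's adjusted p = 0.0484, a call that ended in 6 of the 15 alternative fits, including those without IM1 replicate A or any 1 IM3 library (highest adjusted p = 0.244). Of the transcripts whose products were gated out, Ly6g had 0 counts in both populations (up to 0.254 CPM in a library), Cd3e had 1 count in IM1 and 0 in IM3, and Klrb1c, Spn, Siglecf and Cd24a reached at most 7.63, 27.7, 3.51 and 5.42 CPM. At these levels Klrb1c (-3.07 ± 0.53), Spn (-1.83 ± 0.16) and Siglecf (-1.75 ± 0.30) were called lower in IM1 and Cd24a higher (1.47 ± 0.35), the Cd24a call ending with only the IM1 and IM3 libraries fitted (adjusted p = 0.051). Ptprc, the common leukocyte antigen CD45, stood at 306.5, 401 and 389 CPM in IM1 and 877, 997 and 1019 CPM in IM3 (-1.4 ± 0.14, adjusted p = 1.77e-06 in edgeR's test).

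MHC class II genes gave some of the widest differences in CPM. The promoters of 2 classical class II genes are shown because all tested class II chains were lower in IM1 together, and because class II promoters are known for the boxes through which RFX, CREB and NF-Y factors recruit CIITA. Each is the RefSeq window of 250 bases before and 50 after the start (GRCm38.p6), printed 5′ to 3′ on the gene's strand. Capitals mark the Y box core (CCAAT, or ATTGG on the other strand) and the core TGACG (or CGTCA) of the CRE-like X2 box, whose matches on both strands overlap in H2-Aa. H2-Aa lies at chr17:34287774-34288073 on the minus strand and H2-Eb1 at chr17:34305617-34305916 on the plus strand.
H2-Aa: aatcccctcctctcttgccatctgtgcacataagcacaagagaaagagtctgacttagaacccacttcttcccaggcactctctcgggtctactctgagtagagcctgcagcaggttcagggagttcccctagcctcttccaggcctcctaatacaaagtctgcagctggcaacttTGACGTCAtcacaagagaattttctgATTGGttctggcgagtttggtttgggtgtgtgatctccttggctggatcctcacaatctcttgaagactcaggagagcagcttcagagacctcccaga
H2-Eb1: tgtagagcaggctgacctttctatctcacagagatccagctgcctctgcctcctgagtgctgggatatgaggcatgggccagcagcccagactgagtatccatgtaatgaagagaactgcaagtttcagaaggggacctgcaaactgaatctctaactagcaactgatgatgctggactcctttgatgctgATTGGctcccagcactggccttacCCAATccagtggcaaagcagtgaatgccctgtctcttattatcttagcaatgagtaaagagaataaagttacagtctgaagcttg
The Y box of H2-Aa starts at base 203 of the window and the X2 matches at 177 and 180. H2-Eb1 has Y box matches at bases 192 and 216 and no X2 match. Of the 9 class II chain genes searched, 8 had a window in the table (9 windows), and 8 of those 9 windows held a Y box core, against 37.4% of all 32851 windows. The X2 core was in 1 of the 9, against 20.8% of all windows. A match in letters describes the window and is not a measured binding site. Only these exact letters were searched, so a window without a match may still hold a variant of the box.

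The genes of both chains of the class II molecules were far lower in IM1. H2-Aa, the alpha chain of I-A (ENSMUSG00000036594, mm10 chromosome 17, 34282744 to 34287827), stood at 507, 389 and 539 CPM in IM1, against 10460, 11070 and 10050 CPM in IM3. Its partner H2-Ab1 (chromosome 17, 34263209 to 34269418) stood at 743.5, 573 and 826 CPM in IM1 and 15930, 17380 and 16070 CPM in IM3. H2-Eb1, the beta chain of I-E (chromosome 17, 34305877 to 34316199), stood at 265, 200.4 and 257 CPM in IM1 and 7886, 7831 and 6839 CPM in IM3. Libraries of each population lay close together and the populations were far apart. The fold changes were -4.46 ± 0.20, -4.53 ± 0.20 and -4.97 ± 0.19 with edgeR's adjusted p = 1.03e-09, 1.03e-09 and 2.35e-10. Since the cells were gated on MHC class II, these directions are not independent evidence. IM2, gated high, stood at 7109 ± 235.5 CPM for H2-Aa (SD, n = 3), and AM at 469.5 ± 127 CPM, close to IM1.

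The genes that serve class II presentation without being part of the stained molecule were lower in IM1 too. Cd74, the invariant chain that guides class II to the endosome (chromosome 18, 60803848 to 60812646), stood at 1986, 1793 and 1865 CPM in IM1, against 35850, 37660 and 32300 CPM in IM3 (-4.23 ± 0.16, edgeR's adjusted p = 2.35e-10). Ciita stood at 11.7, 16.45 and 19.2 CPM in IM1 and 277.5, 318 and 331 CPM in IM3 (-4.28 ± 0.22, edgeR's adjusted p = 3.8e-09). The peptide exchange factor DM was lower in all 3 of its genes, with H2-DMa at -2.3 ± 0.14, H2-DMb1 at -3.2 ± 0.16 and H2-DMb2 at -3.1 ± 0.22. So was DO, which restrains DM, with H2-Oa at -4.17 ± 0.52 and H2-Ob at -2.02 ± 0.22. H2-Eb2 had 1 count over the IM1 libraries and 43 over the IM3 libraries. By contrast the RFX subunits that occupy the same promoters were not called: Rfx5 stood at 4.98, 8.29 and 8.95 CPM in IM1 and 6.95, 9.53 and 8.73 CPM in IM3 (-0.17 ± 0.24), Rfxap had a value of -0.04 ± 0.14 and Rfxank of 0.20 ± 0.21. Nor were 3 endosomal enzymes that process antigen, with Ctss (cathepsin S) at -0.39 ± 0.19 (adjusted p = 0.158 in edgeR's test, and called lower in 5 of the 15 alternative fits, whose adjusted p ranged between 0.00114 without IM1 replicate A and 0.395 without IM1 replicate C), Lgmn at 0.26 ± 0.13 and Ifi30 at 0.22 ± 0.21. Of the 20 genes of the presentation list 11 were called lower in IM1 and 1 higher (Cd68, 0.43 ± 0.14, edgeR's adjusted p = 0.0362), and 8 were not called. Their median was -2.16, and the Cd68 call ended in 8 of the 15 alternative fits, including those without IM1 replicate A, IM1 replicate C or any 1 IM3 library (highest adjusted p = 0.217). The count of higher calls was 0 with the length trend taken out or without the 3 libraries rich in Trac. The 11 lower genes and the median include H2-Aa, H2-Ab1 and H2-Eb1, which follow the MHC class II gate.

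**Figure D2:**
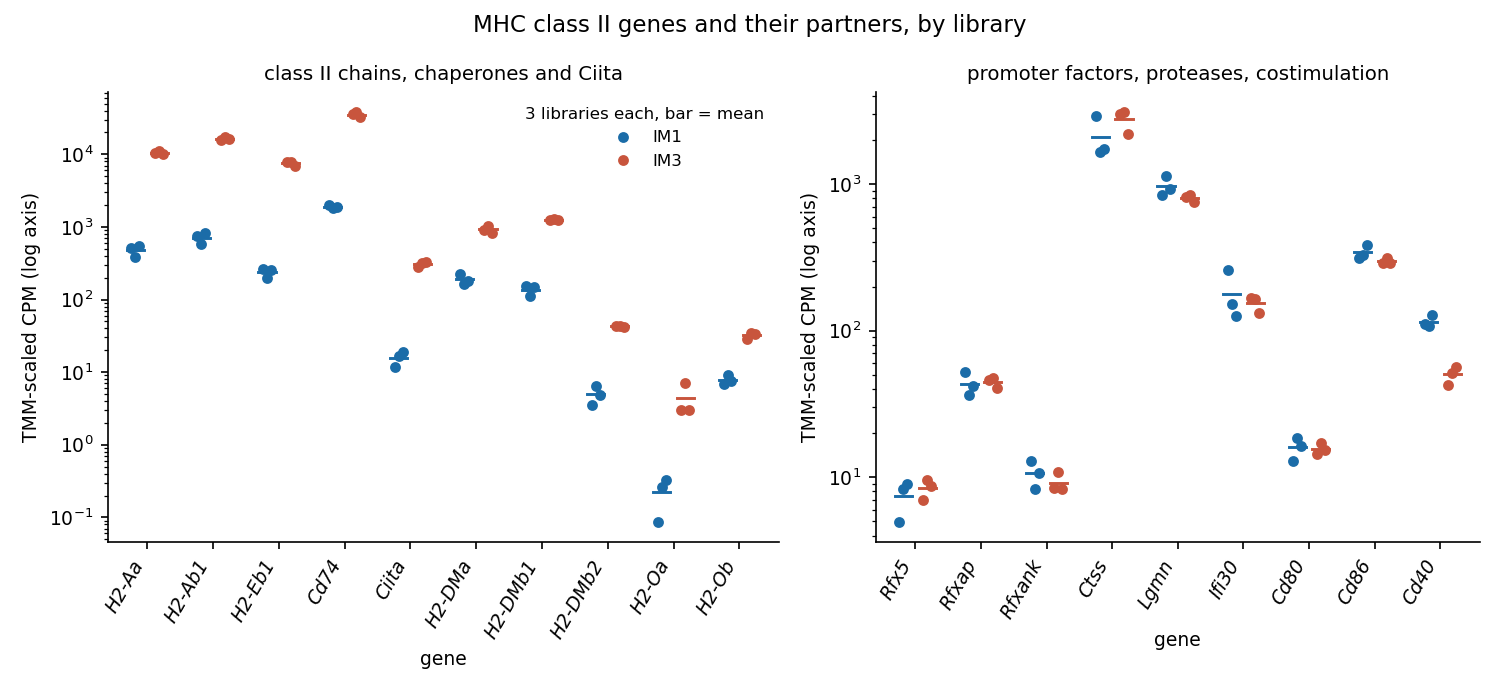
CPM on a log axis of MHC class II genes and their partners in each library, with 3 IM1 libraries (blue, left of each pair) and 3 IM3 libraries (red, right) per gene and a bar at the mean. The left panel holds genes called lower in IM1, such as Ciita at 11.7 to 19.2 CPM in IM1 and 278 to 331 CPM in IM3, and in the right panel only Cd40 was called.

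Ligands that give T cells a costimulatory or inhibitory signal went both ways. Of 15 tested, 4 were called higher in IM1, 5 lower and 6 were not called, with a median of 0.1. Vsig4, a complement receptor that also inhibits T cells (chromosome X, 96247203 to 96293438), stood at 105, 61.5 and 83.3 CPM in IM1, against 0.463, 1.25 and 0.541 CPM in IM3. All IM1 libraries were far above the IM3 libraries (6.8 ± 0.39, edgeR's adjusted p = 1.01e-08). Cd40, which receives help from T cells, was at 115 ± 11.4 CPM in IM1 and 50.2 ± 6.89 CPM in IM3 (SD, n = 3 each, fold change 1.2 ± 0.16), and Cd274 (PD-L1) was higher by 0.85 ± 0.18. Lower in IM1 were Icosl (-1.71 ± 0.19), Havcr2 (TIM-3, -1.7 ± 0.14) and Cd83 (-0.64 ± 0.14), which stabilises class II at the surface. The main costimulatory ligand gene Cd86 had 314.5, 329 and 383 CPM in IM1 and 290.5, 313 and 288 CPM in IM3, and its value of 0.20 ± 0.16 was not called (edgeR's adjusted p = 0.375).

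Among the 29 gene lists, that of CD206-high perivascular macrophages had the median fold change farthest from 0. That rank is not independent of the data, since the list was drawn up with earlier results of these libraries known. The upstream windows of Cd209f and Vsig4 are shown because these genes had among the largest fold changes of any well expressed gene. Cd209f lies at chr8:4105715-4106014 and Vsig4 at chrX:96293389-96293688, both on the minus strand of GRCm38.p6, and neither window holds a Y box or X2 core, so no base is in capitals.
Cd209f: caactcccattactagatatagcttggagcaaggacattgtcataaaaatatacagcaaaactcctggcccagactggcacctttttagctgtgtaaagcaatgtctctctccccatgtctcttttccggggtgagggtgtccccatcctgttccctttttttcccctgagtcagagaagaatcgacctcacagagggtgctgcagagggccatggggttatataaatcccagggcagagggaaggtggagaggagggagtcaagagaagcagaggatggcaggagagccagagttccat
Vsig4: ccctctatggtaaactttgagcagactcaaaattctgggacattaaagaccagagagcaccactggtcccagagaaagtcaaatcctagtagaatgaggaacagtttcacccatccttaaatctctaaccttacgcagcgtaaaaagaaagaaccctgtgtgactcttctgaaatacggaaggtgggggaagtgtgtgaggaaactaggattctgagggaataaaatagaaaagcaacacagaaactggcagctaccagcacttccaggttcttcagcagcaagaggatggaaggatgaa
Among the 19 genes with the largest fold changes in either direction other than H2-Eb1, at 10 CPM or more in the higher population, 17 had a window (21 windows), of which 2 held the Y box core and 3 the X2 core. The Maf recognition core TGCTGAC was in 2 of the 21 (4.7% of all windows) and the Runx motif TGTGGT in 6 (16.8%), each searched on both strands.

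Of 25 marker genes of these cells all 25 were tested, 24 were called higher in IM1 and 0 lower, with a median log2 fold change of 4.93. The list was drawn up with earlier results of these libraries known, and Mrc1 on it was gated. It shares genes with the lists below, among them Ccl8, Ccl24, Pf4, Ltc4s, Fcgrt, Stab1 and Colec12. Cd209f, a lectin of the DC-SIGN family (ENSMUSG00000051906, chromosome 8, 4102787 to 4105835), stood at 432.5, 186 and 262 CPM in IM1, against 1.92, 1.91 and 1.76 CPM in IM3. Its neighbour Cd209g (chromosome 8, 4134733 to 4137707) stood at 197, 75.4 and 107 CPM in IM1 and 1.06, 1.03 and 0.947 CPM in IM3. In both genes IM1 replicate A was highest and replicate B lowest in IM1, and the IM3 libraries were alike and far below. The fold changes were 7.29 ± 0.36 and 6.95 ± 0.42 (edgeR's adjusted p = 1.18e-08 and 6.17e-08). Cd209d (6.69 ± 0.54) and Cd209b (5.21 ± 0.34) went the same way, and because the family members are close paralogs, the division of reads among them is uncertain.

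Lyve1, the hyaluronan receptor that marks perivascular macrophages (chromosome 7, 110850607 to 110862953), stood at 1014, 459 and 485.5 CPM in IM1, against 6.95, 10.3 and 6.77 CPM in IM3 (6.35 ± 0.35, edgeR's adjusted p = 5.86e-09). Folr2, the folate receptor beta (chromosome 7, 101839990 to 101845331), stood at 1982, 808 and 935 CPM in IM1 and 19.9, 24.9 and 27.9 CPM in IM3 (5.68 ± 0.41, edgeR's adjusted p = 7.56e-08). In both genes IM1 replicate A had about double the level of replicates B and C, and all 3 were far above IM3. Cd163, the receptor for haemoglobin bound to haptoglobin, was more even, at 898, 965 and 1007 CPM in IM1 and 85.4, 78.5 and 70.8 CPM in IM3 (3.61 ± 0.13, edgeR's adjusted p = 1.82e-10). Gas6, the bridging ligand between phosphatidylserine and TAM receptors, stood at 1657, 1480 and 1804 CPM in IM1 and 146, 136 and 152 CPM in IM3 (3.51 ± 0.22). Timd4, a phosphatidylserine receptor of long-lived tissue macrophages, stood at 113, 65 and 88.2 CPM in IM1 and 2.58, 2.49 and 3.18 CPM in IM3 (5.0 ± 0.26). F13a1, coagulation factor XIII, was at 2627 ± 537 CPM in IM1 and 85.9 ± 10.03 CPM in IM3. Ednrb, the endothelin receptor B, had a fold change of 6.63 ± 0.31, Fcna, the pattern-recognition protein ficolin A, of 5.56 ± 0.39, and the amino acid transporter gene Slc7a13, outside the list, of 6.39 ± 0.47. The transcription factor gene Maf was higher by a smaller margin (1.37 ± 0.17). The remaining gene, Slco2b1, was at 0.42 ± 0.16 with edgeR's adjusted p = 0.0598, and was called in 7 of the 15 alternative fits, where its adjusted p ranged between 0.00133 and 0.201. Without IM1 replicate A, and with the length trend taken out, all 25 were called. IM1 replicate A was the highest IM1 library in 18 of the 24 genes. IM2, also gated high for CD206, shared the high levels of several, with 268 ± 75.3 CPM of Cd209f and 368.5 ± 93.97 CPM of Lyve1, and stood lower for Vsig4 at 16.8 ± 6.21 CPM.

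**Figure D3:**
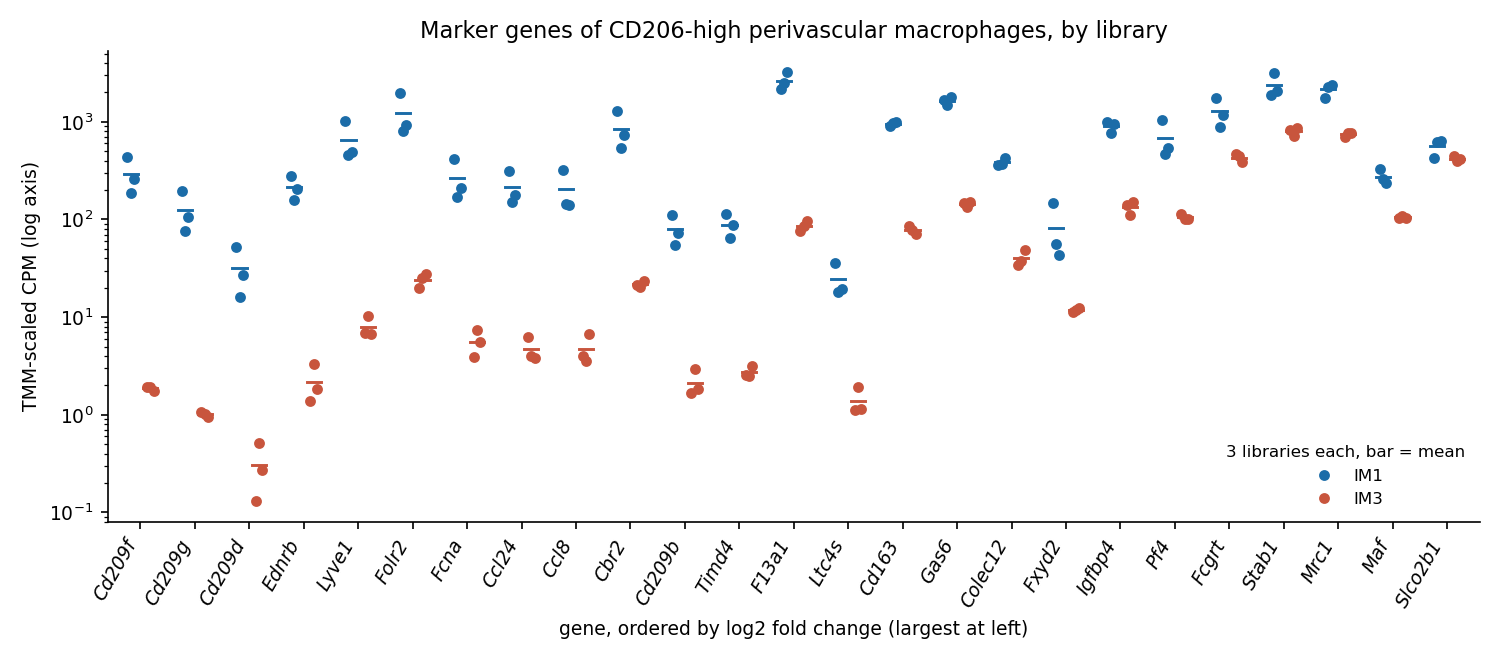
CPM on a log axis of the 25 CD206-high perivascular marker genes in each library, with 3 IM1 libraries (blue, left of each pair) and 3 IM3 libraries (red, right) and a bar at the mean, ordered from the largest log2 fold change (Cd209f, 7.29) to the smallest (Slco2b1, 0.42). The IM1 libraries lie above the IM3 libraries for the 24 genes called, and overlap them for Slco2b1. Over all 14095 genes tested, the libraries of IM1 and IM3 did not overlap in 5172, in either direction.

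The genes most reduced in IM1 came from several families. Klrb1b, a lectin-like inhibitory receptor known from natural killer cells (chromosome 6, 128813706 to 128826331), stood at 1.75, 1.86 and 2.01 CPM in IM1, against 131, 161 and 146 CPM in IM3. The libraries of each population were close together and the populations far apart (-6.27 ± 0.27, edgeR's adjusted p = 6.28e-10). Sums over 6 natural killer cell markers were 0.677 to 1.3 CPM of assigned reads in IM1 and 5.86 to 7.78 CPM in IM3, with Klrb1c lower in IM1 (-3.07 ± 0.53) and Ncr1, Gzma and Eomes at 0 counts in all 6 libraries. H2-M2, a non-classical MHC class I gene (chromosome 17, 37480851 to 37483552), stood at 3.41, 4.38 and 8.43 CPM in IM1 and 222, 279.6 and 327 CPM in IM3 (-5.65 ± 0.35, edgeR's adjusted p = 1.98e-08). Il1r2, the decoy receptor that captures interleukin-1, stood at 0.437, 0.464 and 0.0649 CPM in IM1 and 17.01, 23.1 and 12.45 CPM in IM3 (-5.77 ± 0.47). The adhesion receptor genes Adgrg5 (-6.22 ± 0.36) and Adgrl3 (-5.87 ± 0.37), the orphan receptor gene Gpr141 (-4.86 ± 0.26), Adam23, an ADAM family member without protease activity (-5.28 ± 0.32), and the leucine-rich repeat gene Lrrc3 (-4.8 ± 0.32) completed the group, with at most 1.43 CPM in any IM1 library.

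Genes that monocytes and CD11c-positive macrophages are known to share were mostly lower in IM1 where they were called. Of 19 tested, 8 were called lower, 1 higher (2 without IM1 replicate A) and 10 not called, with a median of -0.76. The 8 include Itgax (CD11c), which by the labels differs between the sorts and is not independent evidence. Ccr2, the receptor through which monocytes leave the bone marrow, stood at 44.65, 85.5 and 82.8 CPM in IM1, against 1050, 1154 and 1261 CPM in IM3 (-4.02 ± 0.26, edgeR's adjusted p = 3.37e-08). Napsa (-2.87 ± 0.25), Lsp1 (-1.95 ± 0.12), Treml4 (-2.31 ± 0.32) and the integrin gene Itgal (-2.21 ± 0.26) were lower as well. Ly6c2, which defines classical monocytes, was low in both, at 0.437, 0.398 and 0.0649 CPM in IM1 and 2.25, 1.25 and 0.947 CPM in IM3. Every IM3 library lay above every IM1 library, but the gene was not called (log2 fold change -2.32, edgeR's adjusted p = 0.0774). It was called lower in IM1 in 3 of the 15 alternative fits, whose adjusted p ranged between 0.00935 and 0.238. Vcan lay between 0.26 and 1.29 CPM. Cx3cr1, the fractalkine receptor, was high in both and not called (-0.32 ± 0.25, edgeR's adjusted p = 0.379). The exception was Fn1 (fibronectin), at 152, 599 and 218 CPM in IM1 and 49.97, 38.8 and 38.6 CPM in IM3 (2.93 ± 0.37, edgeR's adjusted p = 2.82e-05), where IM1 replicate B was well above the other IM1 libraries.

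Lectins, scavenger receptors and Fc receptors were divided, with members of each called in both directions. Of 23 C-type lectin receptors 11 were called higher in IM1 and 5 lower, with a median of 0.37, and the lower count was 3 without IM3 replicate B. Besides the Cd209 family, Clec10a, a galactose-binding lectin, stood at 519, 198.5 and 263 CPM in IM1 and 22.1, 23.1 and 23.8 CPM in IM3 (3.83 ± 0.30, edgeR's adjusted p = 1.92e-07). Its paralog Mgl2 was high in both and not called (-0.02 ± 0.22). Clec7a (dectin-1, a receptor for fungal beta-glucan) was lower at -0.96 ± 0.21, and so were Clec4b1 (-1.95 ± 0.20) and the low Clec9a (-2.11 ± 0.49). Of 23 scavenger and apoptotic cell receptors 9 were called higher and 5 lower, with a median of 0.36. Colec12 (3.26 ± 0.18) and Stab1 (1.56 ± 0.22) were among the higher. Of the TAM family, which engulfs dying cells, Axl stood at 253, 505.5 and 462 CPM in IM1, against 1440, 1414 and 1489 CPM in IM3 (-1.83 ± 0.20, edgeR's adjusted p = 6.04e-06), while Mertk was not called. The 9 Fc receptors tested gave 3 higher calls (5 without IM1 replicate B) and 2 lower, with a median of 0.28. The neonatal receptor gene Fcgrt (1.57 ± 0.20) and Fcrls (2.59 ± 0.16) were higher and Fcgr4, an activating receptor for IgG, was lower (-2.51 ± 0.23). Fcgr2b, Fcgr3 and Fcer1g were not called.

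Complement genes leaned towards IM1. Of 20 tested, 11 were called higher and 1 lower (Itgb2, -0.52 ± 0.11), with a median of 0.74. C4b, the component cleaved after C1 activation, stood at 707.5, 1183 and 915 CPM in IM1, against 18.4, 22.8 and 32.7 CPM in IM3. The populations were far apart with replicate B highest in IM1 (5.25 ± 0.25, edgeR's adjusted p = 1.6e-09). Cfp (properdin, which stabilises the alternative pathway convertase) stood at 1552, 947 and 1076 CPM in IM1 and 163, 142 and 134 CPM in IM3 (3.03 ± 0.20). The terminal component gene C6 stood at 31.9, 21.3 and 31.5 CPM in IM1 and 0, 1.32 and 1.22 CPM in IM3 (5.07 ± 0.50), and Cd55, which protects cells from complement, at 137, 79.9 and 74.4 CPM in IM1 and 1.72, 2.64 and 0.947 CPM in IM3 (5.78 ± 0.37). Of the genes of C1q, which opens the classical pathway, C1qc was called higher (0.67 ± 0.21, edgeR's adjusted p = 0.0265), a call that ended in 6 of the 15 alternative fits, including those without IM1 replicate A or any single IM3 library (highest adjusted p = 0.134), and C1qa (0.31 ± 0.15) and C1qb (0.42 ± 0.22) were not called.

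CC chemokine genes were more often called higher in IM1 and CXC chemokine genes more often lower, a difference between families that was not tested. Of 15 CC chemokines 8 were called higher in IM1 and 4 lower, with a median of 1.11. Ccl8, which attracts monocytes and other leukocytes, stood at 324, 144 and 141 CPM in IM1, against 3.97, 3.52 and 6.699 CPM in IM3 (5.42 ± 0.42, edgeR's adjusted p = 6.16e-07). Ccl24, an attractant of eosinophils, stood at 316, 152 and 178 CPM in IM1 and 6.29, 4.03 and 3.79 CPM in IM3 (5.51 ± 0.37, edgeR's adjusted p = 3.59e-08). The CCR2 ligand genes Ccl7 (3.26 ± 0.30), Ccl12 (1.99 ± 0.28) and Ccl2 (1.94 ± 0.25) were also higher. IM1 replicate A was the highest IM1 library in all 8 genes, and without it 6 were called. Lower in IM1 were Ccl5 (-2.15 ± 0.50), the low Ccl17 and Ccl22, and Ccl4 (-1.06 ± 0.28, edgeR's adjusted p = 0.0107, but 0.0592 at most when IM1 replicate C or IM3 replicate A was left out). Ccl3 was not called (-0.48 ± 0.27). Of 12 CXC and other chemokines 3 were called higher and 6 lower, with a median of -0.88. Pf4 (CXCL4) stood at 1033, 468 and 540.2 CPM in IM1 and 115, 100.5 and 101 CPM in IM3 (2.69 ± 0.31), while of the other platelet markers Gp9, Gp1bb and Itga2b reached at most 0.973 CPM and Ppbp, at 4.19, 4.31 and 4.48 CPM in IM1 and 4.57, 4.11 and 6.16 CPM in IM3, was not called (-0.19 ± 0.26). Cxcl2, an attractant of neutrophils, stood at 180.4, 201 and 141 CPM in IM1 and 541, 433 and 322 CPM in IM3 (-1.31 ± 0.24), and Cxcl16 (-1.07 ± 0.21) and Cxcl14 (-1.77 ± 0.23) were lower too. Among 13 chemokine receptors 2 were called higher (1 without IM1 replicate C or IM3 replicate A), including Ccr1 (1.44 ± 0.18), and 3 lower, namely Ccr2, Cxcr4 (-1.65 ± 0.19) and Ccrl2 (-1.66 ± 0.26), with a median of 0.0.

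**Figure D4:**
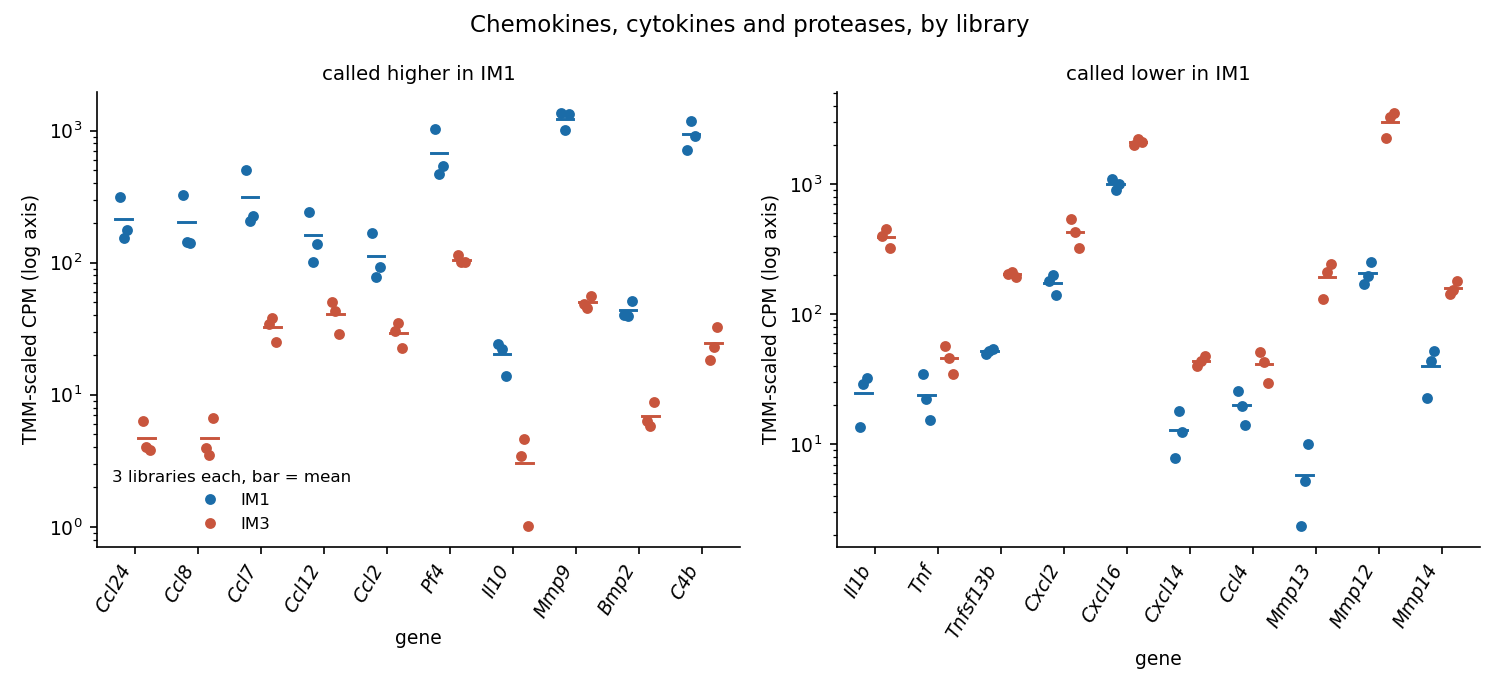
CPM on a log axis of 20 genes of secreted or surface-shed proteins in each library, with 3 IM1 libraries (blue, left of each pair) and 3 IM3 libraries (red, right) and a bar at the mean. The 10 genes in the left panel were called higher in IM1, such as Ccl24 at 152 to 316 CPM in IM1 and 3.79 to 6.29 CPM in IM3, and the 10 in the right panel lower, such as Il1b at 13.5 to 32.2 CPM in IM1 and 323 to 456 CPM in IM3.

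Il1b was lower and Il10 higher in IM1. Il1b stood at 13.5, 28.9 and 32.2 CPM in IM1, against 398, 456 and 323 CPM in IM3 (-3.97 ± 0.32, edgeR's adjusted p = 2.5e-07), with no overlap between the populations. Its antagonist gene Il1rn (-1.02 ± 0.17), the receptor gene Il1r1 (-1.82 ± 0.42) and the decoy Il1r2 were lower in IM1 as well. Il10, the main anti-inflammatory cytokine of macrophages, stood at 24.4, 22.2 and 13.9 CPM in IM1 and 3.44, 4.62 and 1.015 CPM in IM3 (2.74 ± 0.40, edgeR's adjusted p = 0.000195), and the receptor gene Il10ra was lower (-0.83 ± 0.13). Tnfsf13b (BAFF, a survival factor of B cells) was at 52 ± 2.45 CPM in IM1 and 203 ± 9.715 CPM in IM3 (-1.96 ± 0.15), and Tnf had a fold change of -0.94 ± 0.30 with edgeR's adjusted p = 0.0333, a call that ended in 4 of the 15 alternative fits, without IM1 replicate B, IM1 replicate C, IM3 replicate A or IM3 replicate B (highest adjusted p = 0.13). Of 21 cytokines 4 were called higher and 5 lower, with a median of 0.03. The higher count was 1 without IM3 replicate C and 2 without IM1 replicate C, IM3 replicate B or the 3 libraries rich in Trac. Of 30 cytokine receptors 12 were called lower and 7 higher, with a median of -0.32, and the higher count was 2 to 4 without IM1 replicate C, IM3 replicate A or IM3 replicate C. Il7r (-2.94 ± 0.24), Il18r1 (-2.48 ± 0.24) and Csf2ra, the GM-CSF receptor (-1.3 ± 0.11), were lower.

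Sensors of microbes were called in both directions. Of 25 pattern recognition receptors 4 were called higher in IM1 and 7 lower (4 without IM3 replicate B or the 3 libraries rich in Trac), with a median of -0.21. Tlr12, which recognises profilin of parasites, stood at 1.49, 5.97 and 5.77 CPM in IM1, against 48.5, 63.95 and 69.4 CPM in IM3 (-3.75 ± 0.38), and Mefv (pyrin) was lower as well (-3.51 ± 0.35). Tlr5, the flagellin receptor, stood at 44.3, 56.9 and 46.1 CPM in IM1 and 17.3, 11 and 14.75 CPM in IM3 (1.77 ± 0.18), and Ly96, the partner of TLR4, was higher (1.63 ± 0.28). Cd14 and Tlr2 were not called. Of 26 interferon response genes 19 were not called, 4 were higher (2 without IM1 replicate A or any 1 IM3 library, 7 without IM1 replicate B) and 3 lower, with a median of 0.15. Ifitm3, which restricts viral entry, was the widest at 2.25 ± 0.32, and Gbp3, an interferon-induced GTPase, was lower (-1.39 ± 0.15).

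Matrix proteases were split by gene. Mmp9 (gelatinase B) stood at 1365, 1002 and 1325 CPM in IM1, against 48.3, 45.4 and 56.4 CPM in IM3 (4.62 ± 0.19, edgeR's adjusted p = 3.77e-09). Mmp12 (macrophage elastase) stood at 171, 197 and 251 CPM in IM1 and 2267, 3279 and 3554 CPM in IM3 (-3.88 ± 0.26, edgeR's adjusted p = 3.59e-08). Mmp13, a collagenase (chromosome 9, 7272514 to 7283333), stood at 2.36, 5.24 and 9.99 CPM in IM1 and 131, 210.5 and 245 CPM in IM3 (-5.03 ± 0.41, edgeR's adjusted p = 2.92e-07). No library of one population reached the levels of the other in any of the 3. Mmp14, which activates other proteases at the membrane, was lower (-2.0 ± 0.29) and the low Mmp8 higher (2.59 ± 0.37). Of 31 growth factor and matrix genes 11 were called higher and 8 lower (5 without IM3 replicate A), with a median of 0.07. Bmp2 (2.65 ± 0.23), Igf1 (0.66 ± 0.13) and Gpnmb (1.66 ± 0.21) were higher, and Pdgfb (-1.34 ± 0.30) was lower.

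Integrins were lower in IM1 where they were called, and TGF-beta and BMP genes mostly so. Of 18 integrin subunits 11 were called lower and 0 higher, with a median of -0.91. In 4 of the 15 alternative fits 1 member was called higher, including those without IM1 replicate A or IM1 replicate C and that with the length trend taken out. Itgax is among the 11, and its product CD11c differs between the sorts by the labels. Besides it, Itga8 had 2.27, 5.24 and 4.02 CPM in IM1 and 18.7, 23.3 and 32.75 CPM in IM3 (-2.68 ± 0.30). Itgal, the alpha chain of LFA-1, stood at 7.602, 20.9 and 10.25 CPM in IM1 and 65.5, 53.7 and 60.9 CPM in IM3 (-2.21 ± 0.26), Itgb7 was at -1.76 ± 0.27 and Itgav, which with a partner chain releases active TGF-beta, at -1.16 ± 0.29. Itgb1 (-0.52 ± 0.20) and Itga6 (-0.74 ± 0.29) were not called. IM1 replicate B was the highest IM1 library in 10 of the 11. Of 24 TGF-beta and BMP genes 10 were called lower and 1 higher, with a median of -0.39. The higher count was 2 without IM1 replicate A or with the length trend taken out. The lower count was 6 without IM1 replicate C, without IM3 replicate B or without the 3 libraries rich in Trac. The receptor gene Tgfbr1 stood at 183, 279 and 195 CPM in IM1, against 843, 782 and 1011 CPM in IM3 (-2.0 ± 0.18, edgeR's adjusted p = 9.68e-07). Tgfb1 (-1.24 ± 0.24), the inhibitory Smad7 (-2.33 ± 0.37) and the receptor gene Acvrl1 (-1.55 ± 0.14) were also lower, while Bmpr1a was higher (1.64 ± 0.27). Tgfbr2 (0.14 ± 0.24) and Tgfbi (-0.07 ± 0.11) were not called.

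Among transcription factors, calls went both ways. Of 49 tested, 9 were called higher and 14 lower, with a median of 0.08. Spi1 (PU.1) had a value of -0.01 ± 0.13 and Zeb2 of -0.04 ± 0.15, and neither was called. Tfec, a member of the MiT family, stood at 26.9, 17.97 and 22.5 CPM in IM1, against 3.84, 1.32 and 2.91 CPM in IM3 (3.04 ± 0.26). Etv1 (2.24 ± 0.18), Cebpd (1.95 ± 0.29), Zbtb46, known as a marker of classical dendritic cells (1.84 ± 0.21), and Maf (1.37 ± 0.17) were higher too. Runx3, which supports CD11c expression in myeloid cells, stood at 14.3, 15.4 and 9.41 CPM in IM1 and 55.6, 66.3 and 47.6 CPM in IM3 (-2.12 ± 0.27). Pparg (-1.72 ± 0.17), Cebpa (-1.38 ± 0.24), Irf5 (-0.87 ± 0.11) and Irf8 (-0.78 ± 0.12) were lower. Of 24 genes induced early after stimulation or tissue dissociation 15 were not called, 8 were lower in IM1 (5 without IM3 replicate A) and 1 was higher, with a median of -0.42. The higher count was 0 without IM1 replicate A, IM3 replicate B, IM3 replicate C or the 3 libraries rich in Trac, and with the length trend taken out. IM3 replicate A was the highest IM3 library in all 8. Dusp2, a phosphatase that ends MAP kinase signals, stood at 6.204, 5.31 and 4.87 CPM in IM1 and 115, 57.8 and 35.5 CPM in IM3 (-3.67 ± 0.39). Fos (-0.30 ± 0.17) and Dusp1 (-0.42 ± 0.18) were high in all libraries and not called.

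Iron and haem genes were among the lists most often called higher in IM1. Of 22 tested, 15 were called higher and 2 lower (1 without IM1 replicate C or any 1 IM3 library), with a median of 0.91. Cp (ceruloplasmin, which oxidises exported iron) stood at 219.7, 318 and 313 CPM in IM1, against 37.3, 45.5 and 50.4 CPM in IM3 (2.68 ± 0.19, edgeR's adjusted p = 6.44e-08). Tfrc, the transferrin receptor, stood at 32.3, 25.3 and 33.8 CPM in IM1 and 4.37, 4.55 and 8.19 CPM in IM3 (2.42 ± 0.24). Blvrb (2.05 ± 0.23) and Hmox1 (0.84 ± 0.16), which act in the breakdown of haem, the iron exporter gene Slc40a1 (1.79 ± 0.23) and Spic, a transcription factor of red pulp macrophages (1.46 ± 0.20), were higher. Of the ferritin chains Ftl1 was higher (0.93 ± 0.21) and Fth1 was not called (-0.14 ± 0.20). Slc11a1, an iron transporter of the phagosome, was lower (-0.53 ± 0.14). Erythroid genes were low in both: Hbb-bs lay between 0.278 and 15.3 CPM of assigned reads and was not called.

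Lipid and lysosomal genes contributed some of the most abundant differences. Apoe, the apolipoprotein that carries lipid out of macrophages (chromosome 7, 19696109 to 19699166), stood at 21440, 10080 and 11800 CPM in IM1, against 5719, 4078 and 4066 CPM in IM3. IM1 replicate A had about double the level of the others and the populations did not overlap (1.64 ± 0.30, edgeR's adjusted p = 0.000743). Of 35 lipid genes 12 were called higher and 8 lower, with a median of 0.39. Ltc4s, leukotriene C4 synthase (4.12 ± 0.39), the receptor gene Vldlr (2.63 ± 0.35), the cholesterol exporter gene Abca1 (1.53 ± 0.24) and Pltp (1.58 ± 0.14) were higher. Ch25h, which hydroxylates cholesterol (-1.71 ± 0.27), was lower, as was the lipase gene Lpl (-0.99 ± 0.15). Of 27 lysosomal genes 11 were called higher and 4 lower, with a median of 0.31. Ctsb stood at 10490, 9228 and 11650 CPM in IM1 and 5656, 6465 and 6428 CPM in IM3 (0.76 ± 0.13), Grn (progranulin) at 7902, 5519 and 6312 CPM in IM1 and 2633, 2875 and 2404 CPM in IM3 (1.32 ± 0.13) and Ctsd was higher by 1.79 ± 0.12. Ctsk, the collagen-degrading cathepsin K, was at 3.86 ± 0.34 but low in level, with at most 23.2 CPM in IM1. Psap, the precursor of the saposins, went the other way at 1832, 2719 and 2037 CPM in IM1 and 5650, 8287 and 5022 CPM in IM3 (-1.52 ± 0.18). Selenop, a secreted selenium carrier (1.8 ± 0.12), Ly6e (2.84 ± 0.21) and Itm2b (1.04 ± 0.15) were, with Apoe, Ctsb and Grn, the 6 genes with the largest excess of CPM in IM1 among called genes whose libraries did not overlap. Of 22 glycolysis genes 16 were not called, 5 were lower (3 without IM3 replicate C) and 1 was higher, with a median of -0.13; Slc16a3, the lactate exporter, was lower (-1.44 ± 0.24) and Hk3 higher (1.26 ± 0.14).

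Cell cycle genes that were called were mostly higher in IM1, at low levels. Of 32 cell cycle genes 14 were called higher and 1 lower, with a median of 0.64. Ccnb2 stood at 23.2, 20.8 and 24.8 CPM in IM1, against 4.7, 6.01 and 4.06 CPM in IM3 (2.22 ± 0.16, edgeR's adjusted p = 9.38e-08). Top2a stood at 13.5, 20.4 and 17.45 CPM in IM1 and 5.23, 4.33 and 5.48 CPM in IM3 (1.77 ± 0.20), and the proliferation marker Mki67 at 10.05, 18.8 and 15.8 CPM in IM1 and 5.097, 6.82 and 3.18 CPM in IM3 (1.57 ± 0.26). Ube2c (2.2 ± 0.36) and Birc5 (2.07 ± 0.27), which act in mitotic exit and chromosome segregation, were higher too. The DNA replication genes Pcna (0.10 ± 0.13) and Mcm2 (0.06 ± 0.18) were not called, and Ccnd2 (cyclin D2), which acts in G1 phase, was lower (-1.58 ± 0.15). Of 10 AM markers 7 were called higher in IM1 and 2 lower, with sums of 160 to 263 CPM of assigned reads in IM1 and 59.2 to 72.8 CPM in IM3. In IM1 most of the sum was Chil3, at 243, 189.8 and 123 CPM in IM1 and 12.1, 5.87 and 14.95 CPM in IM3 (4.07 ± 0.44). The call of Marco ended in 5 of the 15 alternative fits. Those of Krt79 and Ear1 ended in 7 and 3 of the 14 alternative fits that gave them a value. Each of the 3 calls also ended without the 3 libraries rich in Trac. Single libraries whose omission ended the call were IM1 replicate A, IM3 replicate A and IM3 replicate B for Marco, all but IM1 replicate C for Krt79, and IM1 replicate C and IM3 replicate C for Ear1. AM levels give a scale for these values. In IM1 the 10 AM markers lay between 0.161% and 6.99% of their AM level, with Pparg, which was lower in IM1 than in IM3, at the top and Chil3 at 0.361%. Mki67 reached 21.1%, Top2a 16.7% and Ccnb2 23.5% of the AM level in IM1, and 7.16%, 4.88% and 5.05% in IM3.

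Surface receptors of the Ms4a and Siglec families closed the comparison. Of 13 Ms4a and Tmem176 genes 6 were called higher in IM1 and 1 lower (0 without IM1 replicate C, IM3 replicate A or IM3 replicate B), with a median of 0.44. Ms4a4a stood at 857, 329 and 350.4 CPM in IM1, against 80.55, 86.7 and 60.5 CPM in IM3 (2.75 ± 0.34), with replicate A highest in IM1, and Ms4a6b (1.66 ± 0.19) and Ms4a8a (2.95 ± 0.27) were higher as well. Ms4a7 (-0.05 ± 0.15) and Tmem176b (0.44 ± 0.18) were not called. Of 21 Siglec and paired receptors 4 were called higher and 9 lower, with a median of -0.44. Siglec1 (CD169, sialoadhesin) stood at 267, 233 and 179 CPM in IM1 and 56.5, 44.7 and 51.4 CPM in IM3 (2.15 ± 0.16). Siglech, known from plasmacytoid dendritic cells and microglia, stood at 392, 259 and 408.5 CPM in IM1 and 22.7, 26.7 and 37.5 CPM in IM3 (3.61 ± 0.23). It made up nearly all of the sum over 5 plasmacytoid dendritic cell markers, 283 to 435 CPM of assigned reads in IM1 and 24.2 to 39.9 CPM in IM3, of which Klk1 had 0 counts and Ccr9, Cox6a2 and Pacsin1 reached at most 2.71 CPM. At this low level Cox6a2 was called higher in IM1 (log2 fold change 1.85, edgeR's adjusted p = 0.0119). That call ended in 4 of the 15 alternative fits, including the fit without IM1 replicate A (highest adjusted p = 0.208). The inhibitory Siglece (-0.94 ± 0.11), Lilra6 (-1.55 ± 0.15), Pira2 (-1.28 ± 0.19) and Treml4 (-2.31 ± 0.32) were lower. Among 16 genes linked to alternative activation 7 were called higher and 3 lower, with a median of 0.83. Retnla stood at 745.5, 292.5 and 328 CPM in IM1 and 44.55, 46.6 and 33.7 CPM in IM3 (3.45 ± 0.36), while Il4ra, the receptor chain for interleukin-4, was not called (0.18 ± 0.15).

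**Figure D5:**
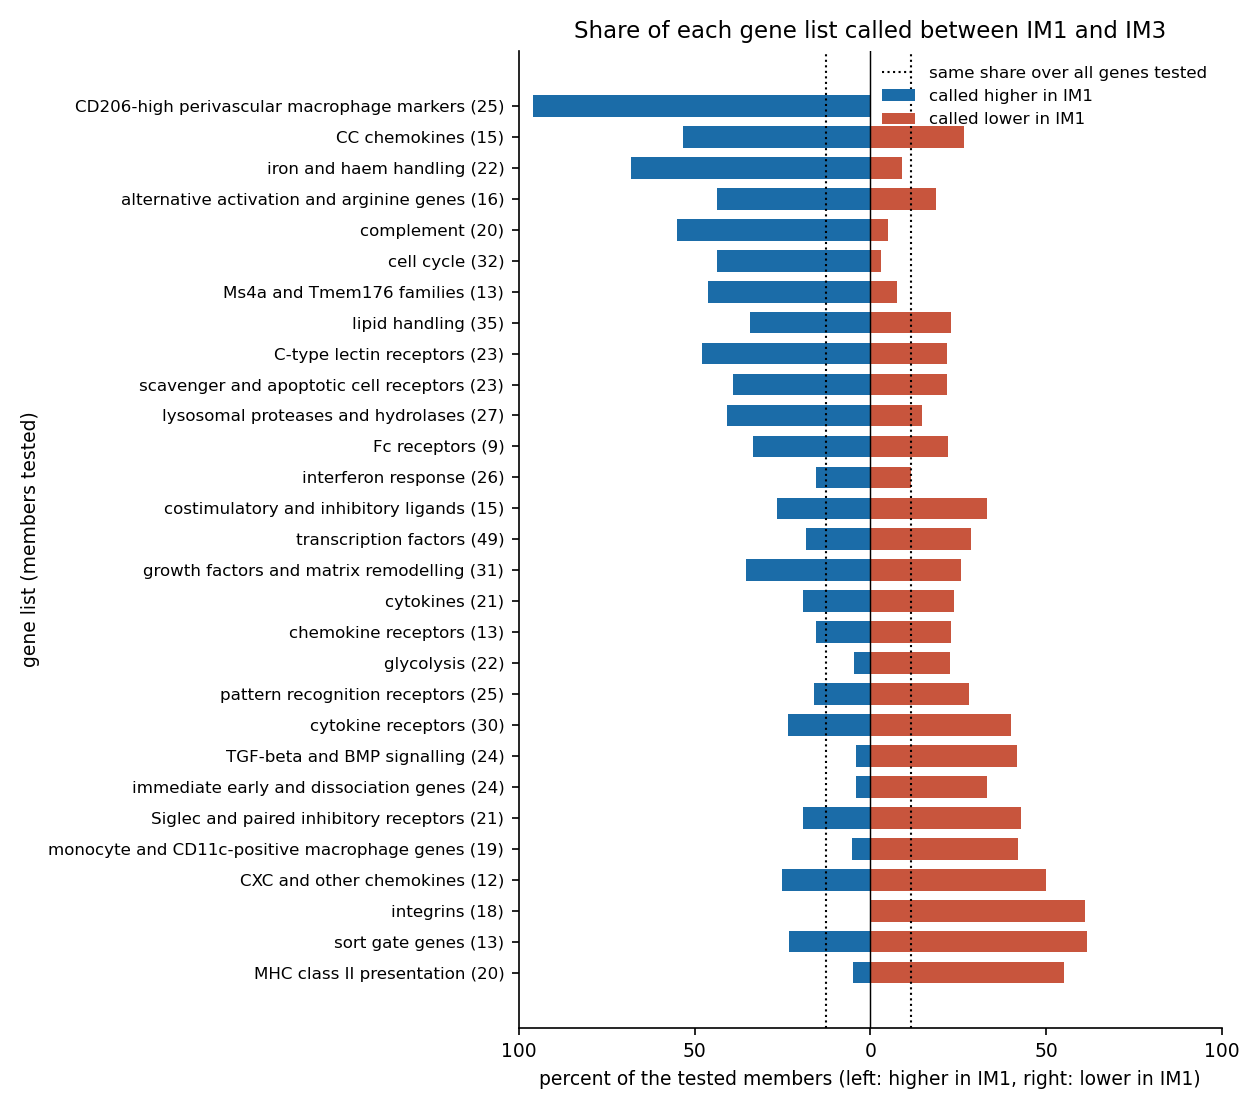
Percent of the tested members of each gene list called higher in IM1 (blue, to the left) or lower (red, to the right), with the number tested in brackets and lists ordered by their median log2 fold change. Dotted lines mark the same shares over all genes tested, 12.7% and 11.7%. The perivascular list lies far beyond the left line (24 of 25) and integrins (11 of 18) and MHC class II presentation (11 of 20) beyond the right line. The lists were drawn up with earlier results of these libraries known. Among the members of these lists are the gated Mrc1, H2-Aa, H2-Ab1 and H2-Eb1, and Itgax, which by the labels differs between the sorts.

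Markers of other cells were checked in CPM of assigned reads without TMM scaling. The sum over 10 macrophage markers was 38100 to 44300 CPM in IM1 and 29600 to 31000 CPM in IM3. Sums over 8 neutrophil markers were 72.9 to 89.6 CPM in IM1 and 58.8 to 69.2 CPM in IM3, mostly Csf3r, which was not called (0.22 ± 0.13), with 1 marker called higher. Sums over 6 eosinophil markers were 1.02 to 2.33 CPM in IM1 and 3.2 to 4.52 CPM in IM3, with Siglecf lower, and sums over 6 mast cell and basophil markers 1.1 to 2.68 CPM in IM1 and 2.36 to 2.86 CPM in IM3, with none called. Sums over 8 B cell markers were 897 to 1130 CPM in IM1 and 711 to 808 CPM in IM3, with Cd79b (0.64 ± 0.18) and Cd22 (0.56 ± 0.18) higher. The Cd79b call ended in 5 of the 15 alternative fits, including those without IM1 replicate A, IM3 replicate A or IM3 replicate C (highest adjusted p = 0.102). The Cd22 call ended in 6 fits, those with only the 6 libraries or without any single one of them other than IM1 replicate A (highest adjusted p = 0.113). Defining genes of neutrophils (S100a8, S100a9), eosinophils (Epx, Prg2), mast cells (Cpa3, Mcpt8) and B cells (Pax5) reached at most 0.801 CPM in the IM1 and IM3 libraries. Ighm, the heavy chain of IgM, was high in both, at 832 to 1060 CPM in IM1 and 663 to 762 CPM in IM3, and was not called. Cd3d, Cd3e and Cd3g reached at most 0.333 CPM in the IM1 and IM3 libraries, also in the 2 that are rich in Trac, while Cd4 stood at 135, 238 and 261 CPM in IM1 and 50.2, 62.6 and 68.0 CPM in IM3 (log2 fold change 1.75, edgeR's adjusted p = 1.64e-05). Of 12 dendritic cell markers, whose sums were 179 to 217 CPM in IM1 and 89.5 to 112 CPM in IM3, Zbtb46, Kmo and Cd209a were higher in IM1, and Flt3, Dpp4, Clec9a and Batf3 were lower, the Batf3 call ending in 3 of the 15 alternative fits, including those without IM1 replicate C or IM3 replicate A (highest adjusted p = 0.0691). Sums over 8 fibroblast markers were 51.8 to 136 CPM in IM1 and 86.7 to 166 CPM in IM3, sums over 8 endothelial markers 59.3 to 141 CPM in IM1 and 64.3 to 87.6 CPM in IM3, and sums over 10 epithelial markers 32.1 to 39.6 CPM in IM1 and 10 to 23 CPM in IM3. Of these markers 1 fibroblast, 2 endothelial and 2 epithelial genes were called higher in IM1, and 2 fibroblast and 1 endothelial gene lower. As in several lists above, the sums did not overlap for 6 smooth muscle and pericyte markers (28.3 to 52.6 CPM in IM1 and 16.8 to 26.7 CPM in IM3), for 5 mesothelial markers (4.33 to 5.08 CPM in IM1 and 0.437 to 1.18 CPM in IM3), for 6 classical monocyte markers (137 to 244 CPM in IM1 and 10.9 to 19.8 CPM in IM3, mostly Chil3 in IM1) or for 5 non-classical monocyte markers (24.1 to 39.6 CPM in IM1 and 51.3 to 64.0 CPM in IM3). In these lists 2 smooth muscle, 1 mesothelial and 2 classical monocyte markers were called higher in IM1. Called lower were 1 smooth muscle and 2 non-classical monocyte markers. Sums over 5 erythroid markers were 8.38 to 22.6 CPM in IM1 and 0.764 to 10.0 CPM in IM3, with none called. The part of these cells in the differences was not tested.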

How the data were processed

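RNA of sorted mouse lung macrophages was sequenced on an Ion Proton P1 chip after SMART-Seq v4 amplification, per the labels. The deposited values are counts per gene: per the file headers the authors counted reads with featureCounts v1.5.0-p1 without strand on mm10 Ensembl 78 gene models, and the submitters' processing notes name STAR 2.5.1b, Subread 1.5.0-p1, DESeq2 1.8.1 and R 3.2.0. Counts without strand cannot separate a gene from an overlapping antisense gene, and paralogs may share reads. The 38 runs were summed to 12 libraries, which matched the deposited library table in every cell, and 42462 of 43346 gene identifiers (98.0%) received a symbol.

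edgeR 4.0.16 in R 4.3.3 was run on all 12 libraries: filterByExpr with a minimum count of 10, TMM scaling, population as the only term, robust quasi-likelihood fit, contrast of IM1 minus IM3 and Benjamini-Hochberg adjustment over 14095 genes with a threshold of 0.05. All 4 populations share the estimate of spread. The standard error is the absolute log2 fold change over the square root of F. The scripts were tested on simulated data. Levels in CPM use TMM factors except where assigned reads are named. The floor of a library was set at 3 counts (0.254 CPM in IM1 replicate A), which covers counting error only. Alternatives were RLE and upper-quartile scaling, no filter, the 6 libraries alone, DESeq2 1.42.0, limma 3.58.1 voom with sample weights, a replicate block, each IM1 or IM3 library left out and, chosen after seeing the data, the 3 libraries rich in Trac left out and a gene length trend taken out. Promoter windows are from RefSeq (GRCm38.p6), of which 32851 were searched.

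The comparison, the gene lists and the rule for naming genes were chosen with earlier results of these data known. The rule takes the gate genes; in each direction the 10 called genes with the largest fold change and the 6 with the largest difference in CPM, at 10 CPM or more in the higher population and with libraries that do not overlap; and from each list up to 4 called genes per direction and 3 not called. Genes named beyond it were chosen after their values were seen: Abca1, Batf3, Blvrb, C1qc, Ccl2, Ccr9, Cd4, Cd79b, Ciita, Cox6a2, Csf2ra, Csf3r, Dpp4, Ear1, F13a1, Flt3, Ftl1, Gpnmb, H2-DMa, H2-DMb1, H2-DMb2, H2-Oa, H2-Ob, Hbb-bs, Hmox1, Igf1, Ighm, Il10ra, Il1r1, Irf5, Irf8, Kmo, Krt79, Lsp1, Ly6c2, Maf, Marco, Mcm2, Mki67, Pacsin1, Pdgfb, Pltp, Retnla, Rfx5, Rfxank, Rfxap, Siglece, Slc40a1, Spi1, Spic, Stab1, Tnf, Top2a, Trac and Vcan.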

Additional observations from a re-analysis of the deposited data

How the results depend on the processing

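With all libraries 3445 genes were called, and 0 of them were called in the opposite direction under any of the 15 alternatives. With only the IM1 and IM3 libraries fitted, 2268 genes were called, 1185 higher and 1083 lower in IM1. The cause was not tested. Leaving out 1 IM1 or IM3 library at a time gave 2441 (without IM3 replicate C) to 4672 calls (without IM1 replicate B), with 1250 to 2359 higher and 1191 to 2313 lower in IM1, and 1467 to 2082 at 2-fold or more. Other counts lay between 2485 (without the 3 libraries rich in Trac) and 4488 (limma voom with sample weights, which gave IM1 replicate A a weight of 0.224 and replicate C 1.84). Without a filter on low counts, 3913 of 24692 genes were called. The median log2 fold change over all genes was at most 0.054 under another scaling. Libraries with the same replicate letter did not deviate together (correlations of 0.066, -0.122 and 0.165 for A, B and C), so the letters are not taken as pairs; the fit with a replicate block gave 3919 calls, 1951 higher and 1968 lower in IM1. Of 318 named genes tested 230 were called, and 38 of these lost the call in at least 1 alternative. Of 58 list counts, 21 moved by more than 1.5 times in at least 1 alternative. The spread limits precision: the median SD of log2 CPM was 0.325 in IM1 and 0.178 in IM3. It was 0.215 in IM2 and 0.144 in AM, which share the estimate of spread with IM1 and IM3 in the main fit.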

Other observations

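Receptor genes of T cells appeared in 3 of the 12 libraries, while the CD3 genes were at or near 0 counts in them. Together the 227 T cell receptor genes took 0.912% of the assigned reads of IM1 replicate A, 0.238% of IM2 replicate B and 0.137% of IM3 replicate B, and at most 0.00713% elsewhere. Besides Trac the reads fell on the variable gene Trav14n-1, with 3986 CPM of assigned reads in IM1 replicate A, 943 CPM in IM2 replicate B and 514 CPM in IM3 replicate B, and less on Trav14d-1, a near-identical copy. Trbc2, of the beta chain, reached 8.80, 3.74 and 2.11 CPM in the same libraries. The separate sequencing runs of a library gave the same level, with Trac at 4135, 4095 and 3999 CPM over the runs of IM1 replicate A and 641, 647 and 649 CPM over those of IM3 replicate B. In the comparison of IM1 with IM3, Trac had a log2 fold change of 2.69 and was not called (edgeR's adjusted p = 0.693).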
